A study of Mus musculus with 10 samples.

Results

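The proteasome genes of the mouse heart were followed across a whole-body and a smooth muscle targeted depletion of Ft1. They were taken as every gene whose symbol is Psm, then a letter from a to g, then a number and at most 1 further letter, leaving out Psmb11, the subunit of thymic epithelium. The rule found 48 genes in each of 3 deposited tables, with 16876 (Ft1ko against WT), 16938 (Ft1sm22ko against WT) and 17487 genes (both mutants). All 48 had a p in every table. By role they are 15 constitutive genes of the 20S core, 3 inducible core genes known as the immunoproteasome, 17 genes of the 19S cap, 5 activators, 7 assembly chaperones and 1 inhibitor.

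Hearts were collected from 1 week old male mice of 3 groups. Ft1ko mice (3 hearts) carry a floxed Ft1 gene, Aktip in the mouse, recombined by CMV-cre, which is active in the whole body. Ft1sm22ko mice (4 hearts) carry the floxed gene recombined by a Cre that the Tagln (sm22) promoter drives in smooth muscle. WT mice (3 hearts) are the controls of both, and both mutants therefore share the same 3 hearts. In bulk tissue, fewer cells of a type and less RNA per cell cannot be told apart. The tables give 1 fold change, its standard error (SE) and its p per gene and comparison, so no value per heart can be shown. Group means were worked out from the mean over both groups, the fold change and the numbers of hearts. They have no error and are in normalized counts that can be compared within a table only, and not between genes. Fold changes are on the log2 scale, with each mutant over WT, and Ft1sm22ko over Ft1ko where the mutants are compared. A gene is called changed at a Benjamini-Hochberg adjusted p under 0.05, computed here over all genes of the table.

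The proteasome is the protease that degrades most proteins marked with ubiquitin in the cytoplasm and nucleus. Its barrel, the 20S core, is built of alpha rings, which gate the entrance, and beta rings, of which 3 subunits cut the chain. The 19S cap recognizes ubiquitin, removes it and unfolds the substrate with a ring of ATPases. Interferon and cells of the immune system bring in Psmb8, Psmb9 and Psmb10, which take the place of Psmb5, Psmb6 and Psmb7 and favour peptides for MHC class I presentation. In heart muscle the proteasome turns over sarcomere proteins that ligases such as Fbxo32 mark for removal.

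Aktip checked the labels, with 175 normalized counts in Ft1ko against 664 in WT (log2 -1.93, SE 0.27, adjusted p = 5.08e-11) and 387 in Ft1sm22ko against 894 in WT (-1.21, SE 0.27, adjusted p = 0.000107). Which cells lost it in Ft1sm22ko hearts was not tested. Markers of several cell types moved with the groups. Of 9 cardiomyocyte markers 8 were lower in Ft1ko and 6 in Ft1sm22ko than in WT, and 6 were higher in Ft1sm22ko than in Ft1ko. Their summed means were 283672 normalized counts in Ft1ko against 1500571 in WT, and 855977 in Ft1sm22ko against 2018767 in WT. Of 10 leukocyte markers 6 were higher in Ft1ko than in WT and none lower, with sums of 5683 against 1344. In Ft1sm22ko 2 were higher and 1 lower than in WT, with sums of 2537 against 1811. All 8 lung epithelium markers were higher in Ft1ko than in WT, with sums of 50040 against 435. In Ft1sm22ko their sum was 3866 against 597 in WT, and 1 of the 8 had a p there. The 11 thymocyte markers had sums of 6108 in Ft1ko against 100.2 in WT and no p, which the authors' tool withholds where 1 library holds an extreme count. In Ft1sm22ko the thymocyte sum was 181 against 136 in WT. At least 1 Ft1ko library thus stands apart. Lung markers without a p in Ft1sm22ko against WT mean that a library of these groups holds extreme counts too. Among them Scgb1a1 was higher in Ft1sm22ko (log2 5.01). Ager alone of them was lower, with 58.8 normalized counts against 319.9 in WT (log2 -2.44). Libraries of WT, which both mutants share, may therefore be affected as well. No result could be computed without any of these libraries. The part of these RNAs in the results below was not tested.

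Promoters of 4 members are shown because Psmb8 and Psmb9 were lower in Ft1sm22ko than in Ft1ko and because Psmd4 and Psmb3 were lower than WT in both mutants. Each runs from 250 bases before to 50 bases after the RefSeq start of the gene (build GRCm38.p6), and capitals mark matches on either strand to CCAAT or to 2 copies of GAAA with 2 bases between them, letters found in interferon response elements. The windows are chr17:34197945-34198244 on the plus strand for Psmb8, chr17:34187281-34187580 on the minus strand for Psmb9, chr3:95042565-95042864 on the minus strand for Psmd4 and chr11:97703184-97703483 on the plus strand for Psmb3.
Psmb8: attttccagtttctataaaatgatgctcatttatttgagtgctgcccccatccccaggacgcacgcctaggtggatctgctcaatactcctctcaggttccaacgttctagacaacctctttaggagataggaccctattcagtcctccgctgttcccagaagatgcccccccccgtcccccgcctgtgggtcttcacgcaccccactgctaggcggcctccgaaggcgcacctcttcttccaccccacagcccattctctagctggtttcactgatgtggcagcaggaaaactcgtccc
Psmb9: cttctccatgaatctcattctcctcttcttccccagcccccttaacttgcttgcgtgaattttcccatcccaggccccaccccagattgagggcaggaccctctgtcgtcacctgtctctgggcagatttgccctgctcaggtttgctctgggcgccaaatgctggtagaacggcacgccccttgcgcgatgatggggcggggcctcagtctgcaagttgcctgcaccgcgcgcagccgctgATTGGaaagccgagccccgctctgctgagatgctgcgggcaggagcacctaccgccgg
Psmd4: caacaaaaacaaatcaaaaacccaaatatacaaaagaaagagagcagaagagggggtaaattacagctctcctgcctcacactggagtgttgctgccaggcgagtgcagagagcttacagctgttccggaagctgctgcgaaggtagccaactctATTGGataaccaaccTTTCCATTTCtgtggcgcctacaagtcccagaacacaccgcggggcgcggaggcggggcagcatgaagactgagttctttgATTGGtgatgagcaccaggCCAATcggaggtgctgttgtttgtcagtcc
Psmb3: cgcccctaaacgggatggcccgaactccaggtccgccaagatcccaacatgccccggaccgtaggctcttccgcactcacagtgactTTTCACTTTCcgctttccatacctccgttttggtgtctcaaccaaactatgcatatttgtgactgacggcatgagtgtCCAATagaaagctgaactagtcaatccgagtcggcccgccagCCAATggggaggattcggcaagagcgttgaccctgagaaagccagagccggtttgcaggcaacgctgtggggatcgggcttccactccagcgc

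The window of Psmb8 held no match, that of Psmb9 held 1 CCAAT, and those of Psmd4 and Psmb3 held both kinds. Of the 48 members 40 had a promoter in the RefSeq table, with 43 windows. The GAAA pair was in 5 of these windows (11.6%: Psmb3, Psmd4, Psmd9, Psme1 and Psmg4), against 3.44% of 32851 windows of all genes. CCAAT was in 13 (30.2%), against 37.4% of all. The letters TGACNNNGC, which belong to the antioxidant response element bound by Nfe2l1 and Nfe2l2, were in 6 (14.0%: Psmb5, Psmb6, Psmc6, Psmd9, Psmd12 and Psme4), against 12.4% of all. Motifs were searched on both strands, and none of the 4 printed windows held the third. The window of Psmb9 shares 275 bases with that of Tap1, a transporter of MHC class I peptides that is read from the other strand.

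Proteasome RNAs leaned to lower values in Ft1ko hearts, with many short of the threshold. Of the 48 members 15 were called lower (31.2%) and 1 higher (2.08%), against 16.1% lower and 19.7% higher of all 16748 genes tested. Members are abundant, and among the 5930 genes with a mean of 300 to 5000 normalized counts 25.8% were lower and 14.6% higher. The share of members called lower was nearer to this 25.8% than to the share of all genes. The median fold change of members was -0.50, against 0.13 over all genes and -0.20 over genes with a mean of 300 to 5000. Of the members 36 of 48 lay below 0, against 59.7% of genes with a mean of 300 to 5000. When fold changes were centred on that last median, 9 members were called lower and 3 higher. The share of all genes called after this centring was not worked out, so these 2 counts have no background beside them. In Ft1sm22ko hearts 11 members were called lower (22.9%) and 1 higher (2.08%), against 16.0% and 16.2% of all 16661 genes and 23.8% lower among genes with a mean of 300 to 5000. The share of lower members there was thus near the background of genes of like abundance. The median was -0.30, against 0.06 over all genes and -0.09 over genes with a mean of 300 to 5000.

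The direct comparison of both mutants tests whether their effects differ. Of the 48 members 8 were called higher in Ft1sm22ko than in Ft1ko (16.7%) and 2 lower (4.17%), against 10.8% and 9.00% of all 17169 genes, and 15.1% higher among genes with a mean of 300 to 5000. The count was therefore near the background, while 43 of 48 fold changes lay above 0. Below 0 lay 10.4% of members, against 46.1% of genes with a mean of 300 to 5000. The median of members was 0.24, against -0.05 over all genes and 0.04 over genes with a mean of 300 to 5000. The SE of members had a median of 0.33 for Ft1ko, 0.24 for Ft1sm22ko and 0.19 between the mutants. Genes with a mean of 300 to 5000 had medians of 0.32, 0.23 and 0.21, in the same order. Of the members 36 of 48 had their smallest SE between the mutants. Psma5, a subunit of the alpha ring, shows this, with an SE of 0.55 and 0.45 against WT and of 0.16 between the mutants.

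**Figure D1:**
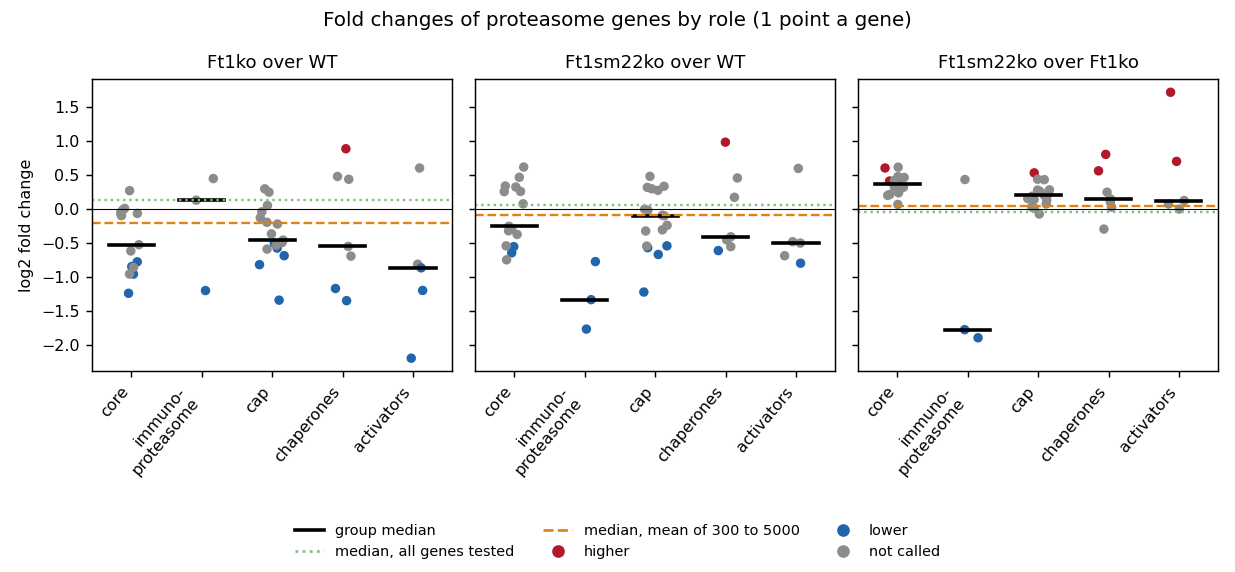
Log2 fold changes of 47 proteasome genes by role, 1 point a gene and without the single inhibitor, in the 3 comparisons; colours give the call, black bars the group median, dotted and dashed lines the medians of all genes tested and of genes with a mean of 300 to 5000 normalized counts. The immunoproteasome had medians of 0.13, -1.33 and -1.78, against -0.53, -0.25 and 0.37 for the core.

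Of the 15 genes of the constitutive core 4 were called lower in Ft1ko and none higher, a share near the 25.8% lower among genes with a mean of 300 to 5000, with a median of -0.53 and a range from -1.24 to 0.27. Psmb3, a structural beta subunit, had 577 normalized counts in Ft1ko against 1363 in WT (log2 -1.24, SE 0.32, adjusted p = 0.000746). Psma4, an alpha subunit, had 1187 against 2307 (-0.96, SE 0.24, adjusted p = 0.000438). Psmb1 had 1119 against 1919 (-0.78, SE 0.25, adjusted p = 0.00753) and Psmb4 had 1054 against 1896 (-0.85, SE 0.33, adjusted p = 0.0344). Of these structural beta subunits Psmb4 and Psmb1 lost the call when fold changes were centred on genes with a mean of 300 to 5000 (adjusted p = 0.118 and 0.0548). Just short of the threshold lay Psmb6 (-0.86, SE 0.37, adjusted p = 0.0531) and Psma3 (-0.53, SE 0.23, adjusted p = 0.0588). Psma7, another alpha subunit, was at -0.62 (SE 0.30, adjusted p = 0.0925). Alpha genes had a median of -0.06 and structural beta genes one of -0.81. Psma1, Psma2, Psma5, Psma8, Psmb2 and Psmb7 were between -0.10 and 0.01, and Psma6 was at 0.27. Psma8, which replaces Psma7 in male germ cells, was near absent, with 6.48 normalized counts in Ft1ko against 6.55 in WT.

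In Ft1sm22ko 2 of the 15 core genes were called lower, the alpha subunit Psma4 and the beta subunit Psmb3. Of all genes tested 16.0% were lower, and 23.8% of those with a mean of 300 to 5000. Psma4 had 2117 normalized counts in Ft1sm22ko against 3108 in WT (log2 -0.55, SE 0.15, adjusted p = 0.00195). Psmb3 had 1173 against 1834 (-0.65, SE 0.21, adjusted p = 0.00934). Psma3 was at -0.30 (adjusted p = 0.0943) and Psmb1 at -0.32 (adjusted p = 0.154), neither past the threshold. The core median was -0.25 and its range -0.75 to 0.62, with 7 of 15 genes above 0. Between the mutants all 15 core genes had fold changes above 0, with a median of 0.37 and a range from 0.07 to 0.62. Against 15.1% higher among genes with a mean of 300 to 5000, 3 of the 15 were called higher in Ft1sm22ko. These were Psmb3 (0.60, SE 0.22, adjusted p = 0.0392), Psma4 (0.41, SE 0.15, adjusted p = 0.0365) and Psma5 (0.41, SE 0.16, adjusted p = 0.0432). All 3 lost the call when fold changes were centred on genes with a mean of 100 or more (adjusted p = 0.0514, 0.0546 and 0.0633). Psmb1 (0.46, adjusted p = 0.0616), Psmb4 (0.48, adjusted p = 0.0715) and Psmb2 (0.42, adjusted p = 0.094) did not pass.

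**Figure D2:**
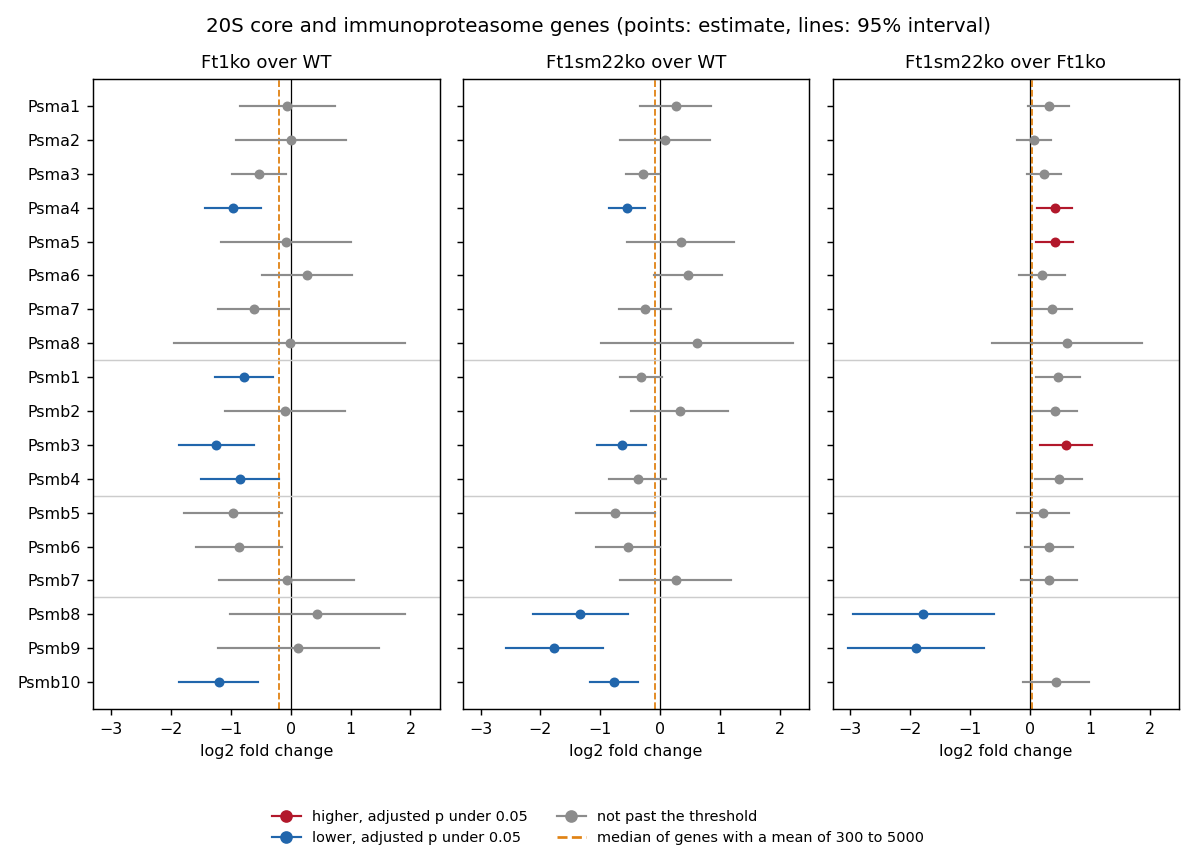
Log2 fold change (point) and 95% interval (line) of the 8 alpha, 4 structural beta, 3 catalytic beta and 3 immunoproteasome genes, from top to bottom, in the 3 comparisons, with the median of genes with a mean of 300 to 5000 normalized counts as a dashed line. Psmb8 and Psmb9 lie left of 0 in both comparisons of Ft1sm22ko, and the 15 constitutive genes lie right of 0 between the mutants.

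Of the inducible catalytic subunits Psmb8 and Psmb9 were lower in Ft1sm22ko than in WT and than in Ft1ko, and Psmb10 was lower than WT in both mutants. In Ft1sm22ko all 3 were called lower than in WT, against 16.0% of all genes tested. Psmb9, which replaces Psmb6, had 55.2 normalized counts in Ft1sm22ko against 188 in WT (log2 -1.77, SE 0.41, adjusted p = 0.00017). Psmb8, which replaces Psmb5, had 148 against 374 (-1.33, SE 0.40, adjusted p = 0.0051), and Psmb10, which replaces Psmb7, had 555 against 949.9 (-0.77, SE 0.21, adjusted p = 0.00125). In Ft1ko only Psmb10 of the 3 was called lower, against 16.1% of all genes tested. It had 307 against 705 (-1.20, SE 0.34, adjusted p = 0.00193). Psmb8 had 380.1 in Ft1ko against 279 in WT (0.45, 95% interval -1.01 to 1.90, adjusted p = 0.671) and Psmb9 had 153 against 140.0 (0.13, 95% interval -1.21 to 1.47, adjusted p = 0.903). Both intervals span 0. Between the mutants Psmb8 had 239 in Ft1sm22ko against 819 in Ft1ko (-1.78, SE 0.60, adjusted p = 0.0217). Psmb9 had 88.6 against 329.8 (-1.90, SE 0.58, adjusted p = 0.0096). Psmb10 was at 0.43 (95% interval -0.11 to 0.98, adjusted p = 0.284).

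Leukocytes and thymocytes are rich in immunoproteasome, and their markers moved beside Psmb8 and Psmb9 between the mutants. The leukocyte sum was 4072 in Ft1sm22ko against 12280.2 in Ft1ko, with 4 of 10 markers called lower, and the thymocyte sum was 293 against 13141.5. Ptprc, the pan-leukocyte phosphatase CD45, was at -3.53 (adjusted p = 0.00503). Against WT the leukocyte sum was 2537 in Ft1sm22ko and 1811 in WT, with Ptprc at 106 against 115 (log2 -0.11, adjusted p = 0.78), while Psmb8 and Psmb9 were lower. The part of these cells in the difference between the mutants was not tested.

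The constitutive partners gave no call in any comparison. Psmb5 was at -0.96 (SE 0.42, adjusted p = 0.059) in Ft1ko, -0.75 (SE 0.34, adjusted p = 0.0731) in Ft1sm22ko and 0.21 (95% interval -0.22 to 0.65) between the mutants. Psmb6 was at -0.86, -0.54 (SE 0.27, adjusted p = 0.113) and 0.32 (95% interval -0.07 to 0.71). Psmb7 was at -0.07 (95% interval -1.20 to 1.07), 0.26 (95% interval -0.66 to 1.18) and 0.32 (95% interval -0.15 to 0.79). The log2 ratio of Psmb9 to Psmb6 was changed by 0.99 in Ft1ko over WT, by -1.23 in Ft1sm22ko over WT and by -2.22 in Ft1sm22ko over Ft1ko. That of Psmb8 to Psmb5 was changed by 1.41, -0.59 and -1.99, and that of Psmb10 to Psmb7 by -1.14, -1.03 and 0.11. No error can be given for a ratio without values per heart.

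The wider class I pathway was counted from a list of 9 genes. In Ft1sm22ko against WT 5 were called lower and 1 higher, against 16.0% and 16.2% of all genes tested, with a list median of -0.93. Tap2 had 284 normalized counts in Ft1sm22ko against 861 in WT (log2 -1.60, SE 0.27, adjusted p = 1.4e-07) and Tap1 had 154 against 516 (-1.74, SE 0.36, adjusted p = 2.43e-05). Both proteins form the transporter that carries proteasome peptides into the endoplasmic reticulum, and their genes neighbour Psmb8 and Psmb9 on chromosome 17 of GRCm38.p6. H2-D1, a class I heavy chain, had 282 against 688 (-1.29, SE 0.28, adjusted p = 4.0e-05). Nlrc5, the transactivator of class I genes, had 13.8 against 102 (-2.88, SE 0.72, adjusted p = 0.000483). Irf1, an interferon response factor, fell too (-0.93, SE 0.30, adjusted p = 0.00946), and Erap1, a peptide trimming enzyme, rose (0.84, SE 0.29, adjusted p = 0.0159). In Ft1ko 1 of 9 was called, H2-D1 at -0.92 (SE 0.29, adjusted p = 0.00694), and the median was -0.06. Of all genes tested there 16.1% were lower and 19.7% higher.

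Between the mutants 4 of the 9 class I genes were lower in Ft1sm22ko and none higher, against 9.00% and 10.8% of all genes tested. Irf1 was at -0.83 (SE 0.22, adjusted p = 0.0023), Tap2 at -1.54 (SE 0.43, adjusted p = 0.00468), Tap1 at -1.38 (SE 0.41, adjusted p = 0.00755) and H2-K1, another heavy chain, at -0.96 (SE 0.36, adjusted p = 0.041). B2m, the light chain of class I, was at 0.37 in Ft1ko over WT, -0.11 in Ft1sm22ko over WT and -0.48 between the mutants, none past the threshold.

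**Figure D3:**
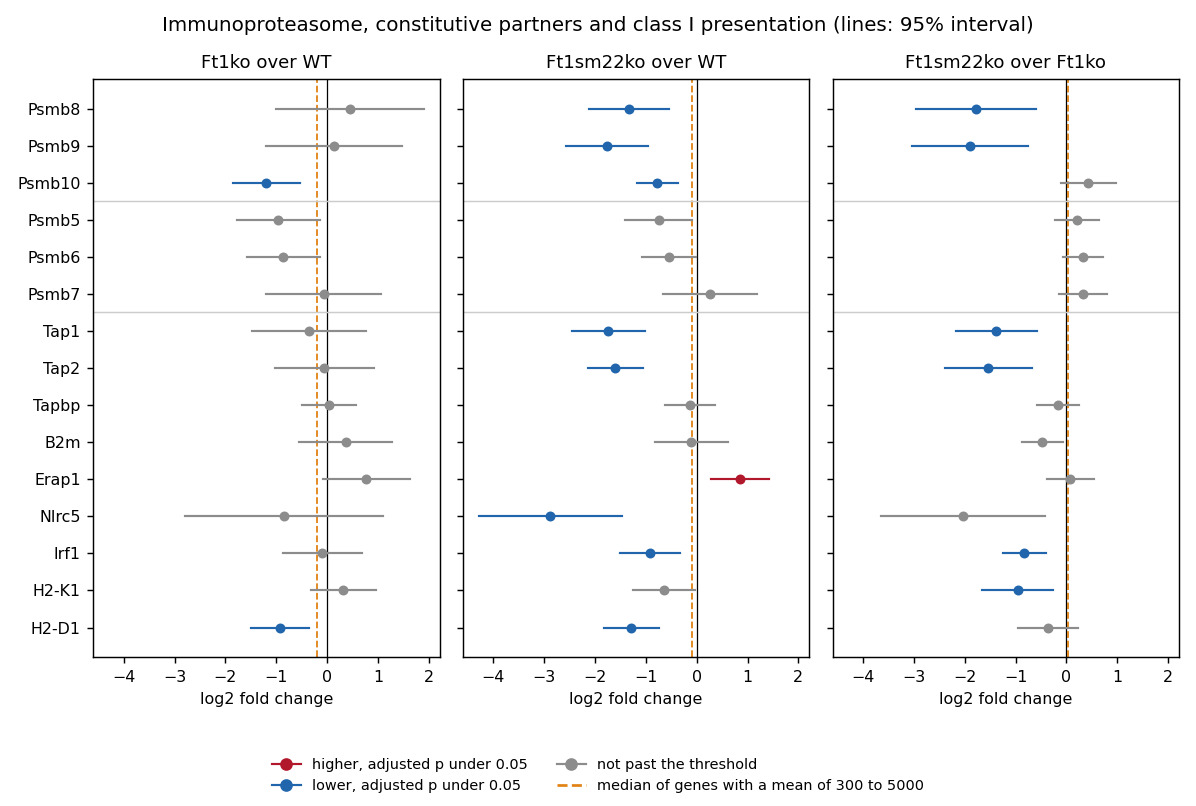
Log2 fold change (point) and 95% interval (line) of the immunoproteasome, its constitutive partners and 9 genes of MHC class I presentation, from top to bottom, in the 3 comparisons. In Ft1sm22ko over WT all 3 immunoproteasome genes, Tap1, Tap2, Nlrc5, Irf1 and H2-D1 are lower, while Psmb5, Psmb6 and Psmb7 are not past the threshold.

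In the 19S cap a few subunits were lower in both mutants and most were not called. Of 17 cap genes 5 were called lower in Ft1ko (median -0.46) and 4 in Ft1sm22ko (median -0.10), and none was higher. These shares are near the 25.8% and 23.8% lower among genes with a mean of 300 to 5000. Psmd4, a ubiquitin receptor of the cap, had 1209.6 normalized counts in Ft1ko against 3066 in WT (log2 -1.34, SE 0.30, adjusted p = 5.58e-05). In Ft1sm22ko it had 1775 against 4143 in WT (-1.22, SE 0.25, adjusted p = 1.03e-05), the lowest of the 17 in both. Between the mutants Psmd4 was at 0.13 (95% interval -0.22 to 0.48). The ATPase Psmc1 had 1383 in Ft1ko against 2061 in WT (-0.58, SE 0.20, adjusted p = 0.0156) and 1871 in Ft1sm22ko against 2777 in WT (-0.57, SE 0.16, adjusted p = 0.00184). The ATPase Psmc4 was at -0.69 in Ft1ko (SE 0.27, adjusted p = 0.0308) and -0.54 in Ft1sm22ko (SE 0.20, adjusted p = 0.0243). Psmc5 was called in Ft1sm22ko (-0.67, SE 0.21, adjusted p = 0.00569) and not in Ft1ko (-0.59, adjusted p = 0.0876), and between the mutants it was at -0.07 (95% interval -0.45 to 0.30).

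The ATPase Psmc3 (-0.82, SE 0.34, adjusted p = 0.0479) and the large scaffold Psmd2 (-0.50, SE 0.21, adjusted p = 0.0472) passed narrowly in Ft1ko. In Ft1sm22ko Psmc3 was at -0.55 (adjusted p = 0.0851) and Psmd2 at -0.31 (adjusted p = 0.119). Psmc1, Psmc3, Psmc4 and Psmd2 lost their calls in Ft1ko when fold changes were centred on genes with a mean of 100 or more (adjusted p = 0.057, 0.0931, 0.0767 and 0.134). Psmd1, a scaffold like Psmd2, was at -0.49 in Ft1ko (adjusted p = 0.0827). The other ATPases and lid subunits without a call ran from -0.53 for Psmd12 to 0.30 for Psmd14, the deubiquitinase of the lid, in Ft1ko. In Ft1sm22ko Psmd14 was the highest cap gene, at 0.48 (95% interval -0.08 to 1.04). Between the mutants Psmc2, an ATPase, was the single cap gene called, with 2405 normalized counts in Ft1sm22ko against 1664 in Ft1ko (0.53, SE 0.16, adjusted p = 0.00747). Psmd6 (0.43, adjusted p = 0.073), Psmd12 (0.44, adjusted p = 0.0811), Psmd1 (0.26, adjusted p = 0.265), Psmc6 (0.23, adjusted p = 0.297) and Psmd3 (0.28, adjusted p = 0.299) followed, short of the threshold. The lid subunits Psmd7, Psmd8, Psmd11 and Psmd13 were not called in any comparison. Their fold changes ran from -0.46 for Psmd13 to 0.25 for Psmd8 in Ft1ko, from -0.32 to 0.32 for the same genes in Ft1sm22ko, and from 0.03 for Psmd11 to 0.22 for Psmd7 between the mutants. The cap median between the mutants was 0.20.

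**Figure D4:**
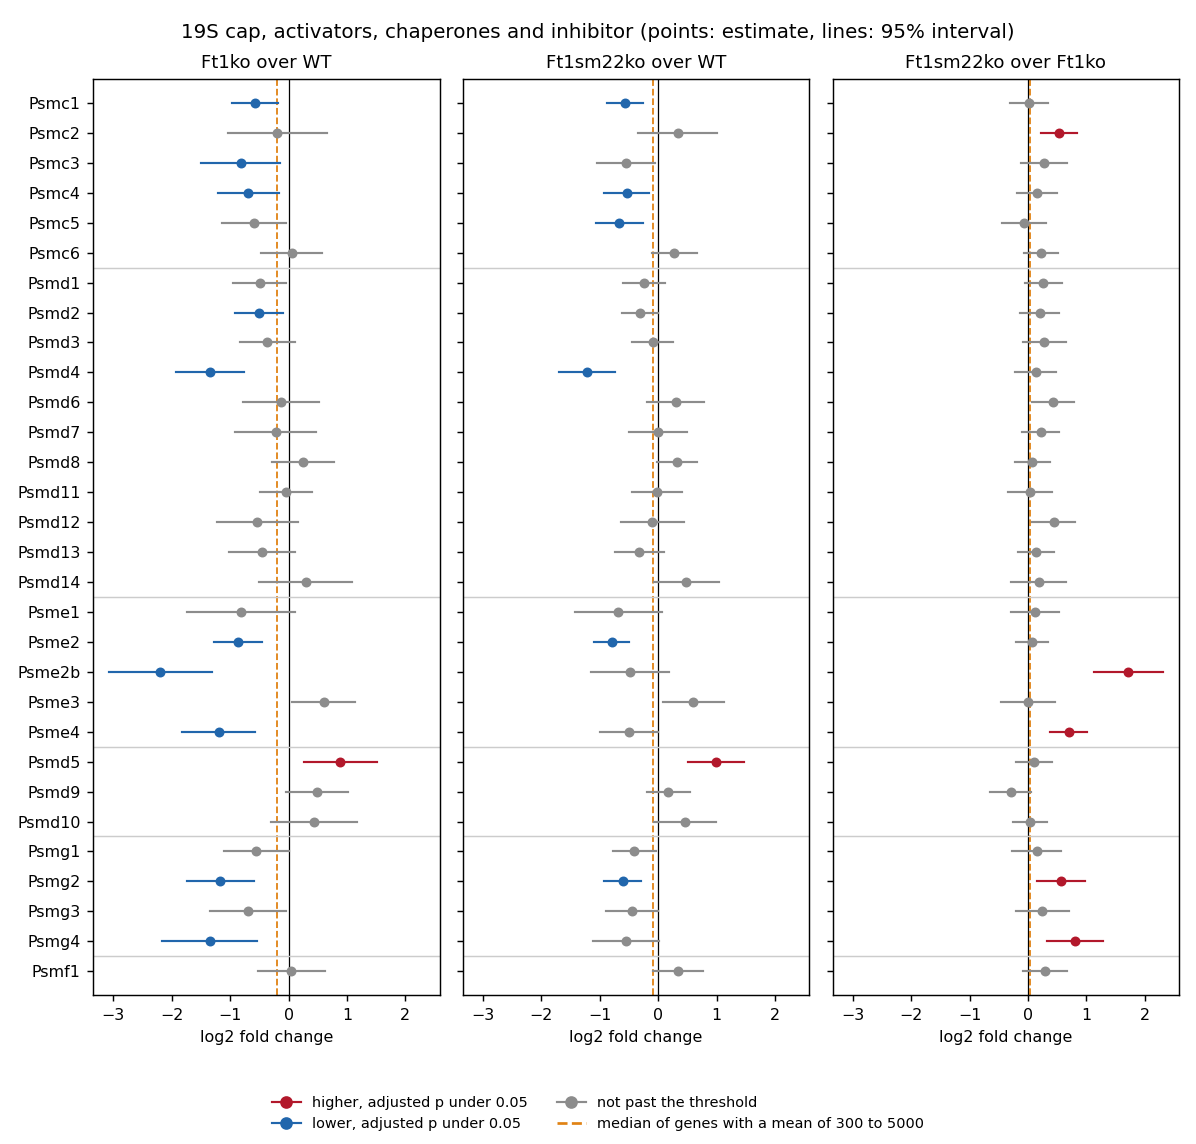
Log2 fold change (point) and 95% interval (line) of 6 ATPases and 11 further subunits of the cap, 5 activators, 3 cap chaperones, 4 core chaperones and the inhibitor Psmf1, from top to bottom, in the 3 comparisons. Psmd4 is low and Psmd5 high in both mutants, and Psme2b and Psme4 lie right of 0 between the mutants.

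Activators open the core without the 19S cap. Psme2, a subunit of the interferon-induced PA28 ring, had 435 normalized counts in Ft1ko against 793 in WT (log2 -0.87, SE 0.21, adjusted p = 0.000345) and 614 in Ft1sm22ko against 1068 in WT (-0.80, SE 0.15, adjusted p = 4.84e-06). Psme1, its partner in the ring, had similar estimates with more error, -0.81 (95% interval -1.74 to 0.11, adjusted p = 0.171) in Ft1ko and -0.69 (95% interval -1.43 to 0.06, adjusted p = 0.157) in Ft1sm22ko. Between the mutants Psme2 was at 0.07 (95% interval -0.20 to 0.35) and Psme1 at 0.12 (95% interval -0.28 to 0.53). Psme4, the large monomeric activator PA200, had 747 in Ft1ko against 1715 in WT (-1.20, SE 0.32, adjusted p = 0.00103) and 1628 in Ft1sm22ko against 2304 in WT (-0.50, SE 0.25, adjusted p = 0.119). It was higher in Ft1sm22ko than in Ft1ko, with 2622 against 1613 (0.70, SE 0.16, adjusted p = 0.000399). Psme3, the nuclear activator PA28 gamma, was above WT without passing, at 0.60 in Ft1ko (SE 0.28, adjusted p = 0.0734) and 0.60 in Ft1sm22ko (SE 0.27, adjusted p = 0.0717). It passed as higher in both when fold changes were centred on genes with a mean of 300 to 5000 (adjusted p = 0.0131 and 0.0348).

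Psme2b, a copy of Psme2, differed most between the mutants among the 48 members by adjusted p. It had 136 normalized counts in Ft1sm22ko against 41.5 in Ft1ko (log2 1.72, SE 0.30, adjusted p = 2.23e-06). Ft1ko had 19.5 against 89.6 in WT (-2.20, SE 0.45, adjusted p = 1.22e-05), and Ft1sm22ko had 86.0 against 120.0 in WT (-0.48, SE 0.34, adjusted p = 0.286). Of the 807 stretches of 31 bases in its GENCODE transcript 76.5% are also in that of Psme2, so reads of both genes can be confused and its values are uncertain. Psme2 itself did not follow it between the mutants.

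Of the 7 assembly chaperones 2 were called lower and 1 higher in Ft1ko, against 16.1% and 19.7% of all genes tested. In Ft1sm22ko 1 was lower and 1 higher, against 16.0% and 16.2%. Of the 4 that help the core ring to form, Psmg1 to Psmg4, 2 were called lower in Ft1ko and 1 in Ft1sm22ko. All 4 had fold changes below 0 against WT in both mutants, with medians of -0.93 and -0.50. Psmg2 had 148 normalized counts in Ft1ko against 332 in WT (log2 -1.17, SE 0.29, adjusted p = 0.00042) and 293 in Ft1sm22ko against 448 in WT (-0.61, SE 0.16, adjusted p = 0.000923). Psmg4 was called in Ft1ko, with 84.4 against 215 (-1.35, SE 0.42, adjusted p = 0.0053), and was at -0.55 in Ft1sm22ko (adjusted p = 0.131). Both were higher in Ft1sm22ko than in Ft1ko, Psmg4 by 0.80 (SE 0.25, adjusted p = 0.01) and Psmg2 by 0.56 (SE 0.21, adjusted p = 0.0404). Psmg2 lost this last call when centred on genes with a mean of 100 or more (adjusted p = 0.0541). Psmg1 (-0.55 and -0.41, adjusted p = 0.113 and 0.0779) and Psmg3 (-0.69 and -0.45, adjusted p = 0.0918 and 0.115) did not pass in either mutant.

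The 3 chaperones of the cap base, Psmd5, Psmd9 and Psmd10, had fold changes above 0 in both mutants, with 1 of the 3 called. Psmd5 was the single member called higher than WT, with 215 normalized counts in Ft1ko against 116 in WT (log2 0.89, SE 0.32, adjusted p = 0.0185) and 311 in Ft1sm22ko against 157 in WT (0.98, SE 0.24, adjusted p = 0.000455). Psmd9 was at 0.48 in Ft1ko (adjusted p = 0.16) and 0.17 in Ft1sm22ko (adjusted p = 0.52), and Psmd10 at 0.44 (adjusted p = 0.38) and 0.46 (adjusted p = 0.197). Between the mutants Psmd9 was at -0.30 (95% interval -0.64 to 0.05). Psmf1, which inhibits the core in vitro, was at 0.05 in Ft1ko (95% interval -0.52 to 0.62) and 0.33 in Ft1sm22ko (95% interval -0.10 to 0.76).

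Proteins that bind the proteasome without a Psm name were counted from a list of 10 genes, of which 9 were in the tables. In Ft1ko 4 of them were called lower and none higher, against 25.8% lower among genes with a mean of 300 to 5000. In Ft1sm22ko 3 were lower and 1 higher, against 23.8% lower among such genes, and between the mutants 2 were higher, against 15.1%. Shfm1, the smallest cap subunit, now named Sem1, had 1375 normalized counts in Ft1ko against 3710.2 in WT (log2 -1.43, SE 0.27, adjusted p = 1.55e-06) and 2719 in Ft1sm22ko against 4992 in WT (-0.88, SE 0.22, adjusted p = 0.000574). AI314180, now named Ecpas, a scaffold that ties the cap to the core, was at -1.45 (SE 0.29, adjusted p = 7.59e-06) and -0.81 (SE 0.21, adjusted p = 0.000943), and higher in Ft1sm22ko than in Ft1ko by 0.65 (SE 0.16, adjusted p = 0.000875). Pomp, the maturation factor of the core, was at -0.85 (SE 0.24, adjusted p = 0.00226) and -0.51 (SE 0.17, adjusted p = 0.0134). Usp14, a deubiquitinase of the cap, was higher in Ft1sm22ko (0.65, SE 0.21, adjusted p = 0.0102). Zfand5, a zinc finger protein that binds the proteasome, was lower in Ft1ko (-1.04, SE 0.35, adjusted p = 0.0117) and higher in Ft1sm22ko than in Ft1ko (0.62, SE 0.18, adjusted p = 0.00705).

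Nfe2l1 is the transcription factor that raises proteasome genes when proteasome activity falls short. It had 2139 normalized counts in Ft1ko against 5330 in WT (log2 -1.32, SE 0.25, adjusted p = 2.85e-06) and 4711 in Ft1sm22ko against 7175 in WT (-0.61, SE 0.20, adjusted p = 0.0105). It was higher in Ft1sm22ko than in Ft1ko by 0.72 (SE 0.22, adjusted p = 0.0096). Of the 6 genes listed around it, 1 was called lower and 1 higher in Ft1ko, against 16.1% and 19.7% of all genes tested. In Ft1sm22ko 2 were lower and 1 higher, against 16.0% and 16.2%. The relative Nfe2l3 was the higher one, with 52.6 in Ft1ko against 1.07 in WT and 36.0 in Ft1sm22ko against 1.44 in WT, so that its fold changes rest on about 1 normalized count in WT. Keap1, which holds Nfe2l2 back, was lower in Ft1sm22ko (-0.56, SE 0.18, adjusted p = 0.00737). Nfe2l2 was higher in Ft1sm22ko than in Ft1ko by 0.64 (SE 0.19, adjusted p = 0.00844) and was not called against WT in either mutant.

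Genes that charge ubiquitin or deliver substrates were called in both directions. Of 9 such genes 2 were higher and 2 lower in Ft1ko, against 19.7% and 16.1% of all genes tested. In Ft1sm22ko 4 were higher and 1 lower, against 16.2% and 16.0%. None was called between the mutants in the deposited Wald test, where 1 of 9 had an unadjusted p under 0.05. Ubqln2, a shuttle to the proteasome, rose in Ft1ko (1.25, SE 0.26, adjusted p = 2.43e-05) and in Ft1sm22ko (1.27, SE 0.21, adjusted p = 1.15e-07), while the related Ubqln4 fell (-0.87, adjusted p = 0.00389, and -0.55, adjusted p = 0.0265). Rad23b, another shuttle, rose by 0.68 (adjusted p = 0.0119) and 0.76 (adjusted p = 0.00651). Vcp, an ATPase that extracts substrates, was lower in Ft1ko (-0.66, SE 0.24, adjusted p = 0.0218) and not called in Ft1sm22ko (-0.28, adjusted p = 0.219). Between the mutants Vcp was at 0.39 (adjusted p = 0.137) and Ubqln4 at 0.33 (adjusted p = 0.173).

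Ubiquitin ligases of muscle were lower in part, as cardiomyocyte markers were. Of 6 listed genes 4 were called lower in Ft1ko and 3 in Ft1sm22ko, and none higher. Of all genes tested 16.1% and 16.0% were lower, and 25.8% and 23.8% of those with a mean of 300 to 5000. Trim55, another ligase of the list, was above WT without passing. It was at 0.49 in Ft1ko (SE 0.39, adjusted p = 0.339) and 0.82 in Ft1sm22ko (SE 0.37, adjusted p = 0.0759). Fbxo32, the ligase atrogin-1, had 282 normalized counts in Ft1ko against 1266 in WT (log2 -2.16, SE 0.25, adjusted p = 1.08e-15) and 881 in Ft1sm22ko against 1710.3 in WT (-0.96, SE 0.35, adjusted p = 0.0256). It was higher in Ft1sm22ko than in Ft1ko by 1.22 (SE 0.37, adjusted p = 0.00883). Trim54, a sarcomere ligase, was at -2.49 in Ft1ko (SE 0.54, adjusted p = 4.87e-05) and -1.88 in Ft1sm22ko (SE 0.44, adjusted p = 0.000168). Stub1, the chaperone-linked ligase CHIP, was at -0.88 in Ft1ko (SE 0.31, adjusted p = 0.0162) and -0.76 in Ft1sm22ko (SE 0.17, adjusted p = 0.00013), where it had the smallest p of the list. Trim63, the ligase MuRF1, was lower in Ft1ko (-1.18, SE 0.45, adjusted p = 0.0299) and was at 0.77 between the mutants (adjusted p = 0.0863). The part of cardiomyocyte RNA in these values was not tested.

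Members also differed by base composition, which the rule did not use. Their longest coding transcripts in GENCODE M21 had 37.0% to 58.3% G and C. Across the 48 genes the Spearman correlation of G and C content with fold change was -0.62 in Ft1sm22ko over WT, -0.38 in Ft1ko over WT and -0.14 between the mutants. Over all genes with a mean of 100 or more it was -0.23, -0.15 and -0.04. The correlation with transcript length was 0.35, 0.46 and -0.28 for the members, and 0.12, 0.17 and -0.14 over all such genes. These are descriptions across genes, which share their libraries and are not independent. The immunoproteasome genes have 55.3% to 56.5% G and C and Psmd4 has 54.4%, while Psmd5, the single member called higher than WT, has 45.1%. Other members lie off this trend, among them Psmd3, with 58.3% and a fold change of -0.09 in Ft1sm22ko, and Psmd9, with 52.7% and 0.17.

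**Figure D5:**
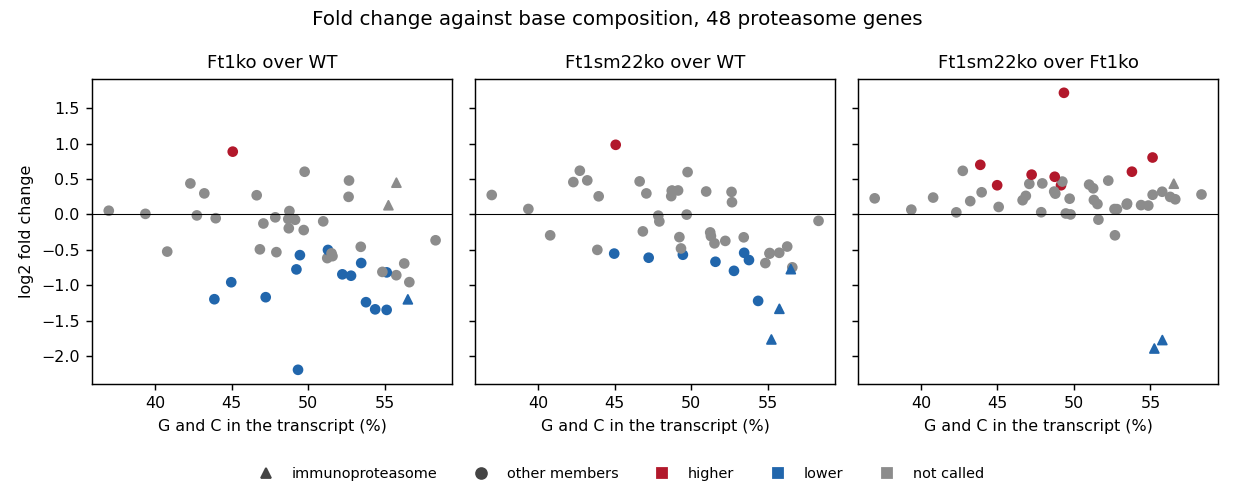
Log2 fold change of the 48 proteasome genes against the share of G and C in the longest coding transcript, in the 3 comparisons, with triangles for the immunoproteasome and colours for the call. In Ft1sm22ko over WT genes with more G and C lie lower (Spearman correlation -0.62), and between the mutants the spread is nearly flat (-0.14) apart from Psmb8 and Psmb9.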

How the data were processed

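Heart RNA was extracted with TRIzol and sequenced from stranded mRNA libraries. The authors aligned reads with STAR to a reference that the labels and the paper name hg38, although the gene names are mouse symbols, and counted them per gene with HTSeq. The authors then fitted DESeq2 to each pair of groups. StringTie is also named. The deposited mean signal averages normalized counts over both groups. The deposited log2 fold change comes with its SE. A deposited score, the Wald statistic, has a 2-sided deposited p-value. The authors put WT over mutant, and Ft1ko over Ft1sm22ko, and the signs were turned here. Score and fold change over SE differed by at most 8.35e-14, and the 3 fold changes of a member closed to within 0.0164.

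The tables hold only the authors' comparisons, so their columns were used and no model was fitted. The p were adjusted again over the 16748, 16661 and 17169 genes that have one, leaving out 128, 277 and 318 without. Depth per library is not given in the sources used here, nor whether hearts came from separate litters, so p-values measure the spread between these samples. Calls and centring were tested on simulated data. Members and lists were chosen with earlier results of these data known. All members are named, and of each outside list 2 to 4 genes with the smallest p per comparison. B2m and Erap1 were named after their values were seen. Some genes of these lists are not reported here. Alternatives were Bonferroni, the deposited adjusted p, a mean of 100 or more, a log2 fold of 0.5 or more, 3 centrings, and role medians worked out through the other 2 tables. Promoters came from RefSeq and transcripts from GENCODE M21.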

Additional observations from a re-analysis of the deposited data

Results flagged for a closer look

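The direct test of Ft1sm22ko against Ft1ko compares the effects of both mutants, and it separated 10 members and 9 genes of the lists around them. Of the 48 members 16.7% were higher and 4.17% lower, against 10.8% and 9.00% of all genes tested. Among genes with a mean of 300 to 5000, 15.1% were higher and 9.07% lower. Higher in Ft1sm22ko, on the log2 scale, were the activators Psme2b by 1.72 and Psme4 by 0.70, the core chaperones Psmg4 by 0.80 and Psmg2 by 0.56, the core genes Psmb3 by 0.60, Psma4 by 0.41 and Psma5 by 0.41, and the ATPase Psmc2 by 0.53. Lower were 2 of the 3 immunoproteasome genes, Psmb9 at -1.90 and Psmb8 at -1.78. Psmb3, Psma4, Psma5 and Psmg2 lost the call when fold changes were centred on genes with a mean of 100 or more.

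Around them the partner genes AI314180 (0.65) and Zfand5 (0.62), the regulators Nfe2l1 (0.72) and Nfe2l2 (0.64) and the muscle ligase Fbxo32 (1.22) were higher in Ft1sm22ko than in Ft1ko. Lower were the class I genes Tap2 (-1.54), Tap1 (-1.38), H2-K1 (-0.96) and Irf1 (-0.83). Psme2b shares most of its sequence with Psme2 and is uncertain. The thymocyte markers, of which 10 of 11 had no p in this table, had sums of 293 in Ft1sm22ko against 13141.5 in Ft1ko, and their part in these values was not tested.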

How the results depend on the processing

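With Bonferroni 1 member was lower and 0 higher in Ft1ko, 2 lower and 0 higher in Ft1sm22ko, and 1 higher and 0 lower between the mutants, in all 1, 2 and 1. Psme2b in Ft1ko and between the mutants and Psmd4 and Psme2 in Ft1sm22ko passed it. Centred on all genes, 23 members were lower in Ft1ko and 24 called, and between the mutants 12 were higher and 14 called. Centred on genes with a mean of 100 or more, Ft1ko had 2 members higher and 10 lower, Ft1sm22ko 2 higher, and between the mutants 4 were higher and 6 called. Centred on genes with a mean of 300 to 5000, chosen after seeing the data, Ft1ko had 3 higher and 9 lower, Ft1sm22ko 2 higher, and between the mutants 4 were higher and 6 called. The shares of all genes called with Bonferroni or after a centring were not worked out, so these counts stand without a background. The deposited adjusted p changed no call of a member, and no called gene changed direction under the alternatives run. Role medians moved by less than the median SE of their group in all 4 settings run.

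No paired analysis was possible because the tables hold 1 value per comparison and none per heart. Leaving out a heart, another count tool and a protein comparison were not run for lack of values per heart or of protein sequences here. Psmb8 and Psmb9 had SEs of 0.74 and 0.68 in Ft1ko against WT, where the median over members was 0.33. These wide errors, and the unknown depth per library, limit what a missing call of either gene can show.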
